A study of Homo sapiens with 10 samples.

Results

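The genes for the subunits of the oxidative phosphorylation system were followed in QGP-1 cells, a human pancreatic neuroendocrine tumor line, by RNA-seq. Gene names of the 5 complexes were matched by a fixed pattern in both expression tables, which gave 149 names, of which 56 were pseudogene names and were left out. Of the remaining 93 genes, 91 had a mean of at least 1 CPM (the read count scaled to a common library size) in both tables and are the members described here, out of 35606 gene IDs. They comprise 78 nuclear genes and 13 genes of the mitochondrial genome. Complex I contributed 36 nuclear and 7 mitochondrial genes, complex II 4 nuclear genes, complex III 9 and 1, complex IV 11 and 3, and complex V 18 and 2. NDUFA4 was counted with complex IV, where the protein it encodes resides.

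The 10 samples form 5 groups of 2. In the knockdown table, cells with dCas9-KRAB (CRISPR interference, a repressor fused to inactive Cas9) carried the control guide sgNC or a single guide against PIKFYVE, sgPIKFYVE-1. All 4 of these samples therefore share the lentiviral CRISPRi machinery. In the drug table, QGP-1 cells labelled as wild type received DMSO, 1 µM apilimod, an inhibitor of the lipid kinase PIKfyve, or 100 nM Torin-1, an inhibitor of the kinase mTOR. The labels give 24 h for both drugs, whereas the text of the study gives a shorter time. The comparisons ask how respiratory chain transcripts differ when PIKfyve is lost or inhibited and when mTOR is inhibited. Since the tables were normalised separately, each treated group was compared only with the control of its own table, and Torin-1 also with apilimod. The labels do not say that the 2 samples of a group came from separate cultures, so p-values measure the spread between these samples, which may be technical.

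Oxidative phosphorylation is carried out by 5 complexes in the inner mitochondrial membrane. Complexes I and II pass electrons from NADH and succinate to ubiquinone, complexes III and IV pass them on through cytochrome c to oxygen, and complex V, the ATP synthase, uses the resulting proton gradient. Complex II is encoded wholly in the nucleus, while the others combine nuclear subunits with subunits made inside the organelle from its own circular genome, so that 2 sets of genes with separate transcription machineries supply each of them.

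The estimated depth lay between 9.30 M and 13.6 M reads per sample, and 3 reads, taken as the limit that a count of 0 allows, corresponded to between 0.227 and 0.329 CPM. This limit covers counting error only. PIKFYVE itself was at 100.7 and 97.5 CPM in the sgNC samples and at 10.85 and 12.5 CPM in the sgPIKFYVE-1 samples (log2 fold change -2.98 ± 0.10 (SE), limma adjusted p = 1.22e-14). All 8 neuroendocrine markers listed were detected, from 66.0 CPM for NCAM1 to 5622 CPM for SCG2, whereas of the 12 markers of fibroblasts, leukocytes and endothelium listed, COL3A1, LUM and CD3E were at 0 in every sample and the others were low. The highest of these was COL1A1, a fibroblast collagen, at 9.46 and 9.61 CPM with sgNC, 7.23 and 5.61 CPM with sgPIKFYVE-1 and between 1.27 and 3.17 CPM in the drug table, followed by the endothelial PECAM1 at 0.895 to 3.76 CPM. The part of such signal in the results was not tested.

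After PIKFYVE knockdown, respiratory chain transcripts of both genomes were higher. Of the 78 nuclear members, 51 rose, 2 fell and 25 did not pass the test (limma adjusted p under 0.05), where 21.6% of all 13591 genes tested were called higher and 20.9% lower. All 13 mitochondrially encoded members rose. After quantile normalization 9 of the 13 were called higher and 1, MT-ND5, was called lower instead. Without the variance trend 9 were called higher, and 11 when genes with low values were kept. Without sgNC replicate 2 the 2 falls became 0, and without sgPIKFYVE-1 replicate 2 they became 1. The median log2 fold change was 0.24 for the nuclear members and 0.36 for the mitochondrial ones, against -0.0042 over all genes tested. Fold changes are on the log2(CPM + 1) scale, which understates the change of low genes, and adjusted p-values (Benjamini-Hochberg) cover all genes of a table. In bulk RNA of this kind, fewer cells of a type and less RNA per cell cannot be told apart. Without a variance trend in the fit, the number of nuclear members called higher dropped to 25.

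The drugs gave different pictures. With Torin-1, 60 of the 78 nuclear members fell and 0 rose, where 21.8% of 13520 genes tested were called lower and 16.6% higher, and 63 nuclear members were lower at an unadjusted p under 0.05. Among the 13 mitochondrial members, 1 rose and 0 fell. That count became 3 higher without Torin-1 replicate 1, 1 lower appeared without Torin-1 replicate 2, and quantile normalization gave 2 higher and 4 lower. With apilimod, 0 of the 91 members were called in either direction, where 5.75% of genes were called higher and 2.79% lower. Before adjustment, at p under 0.05, limma found 9 members higher with apilimod and 0 lower. The share of all genes at that unadjusted limit was not counted, for apilimod or for Torin-1. Neither unadjusted count is therefore read as a result about the members. The mitochondrial members called higher with apilimod became 2 without apilimod replicate 2 or with only the compared groups in the fit, 1 after quantile normalization, and 4, with 1 nuclear member, when the replicate number was a block.

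**Figure D1:**
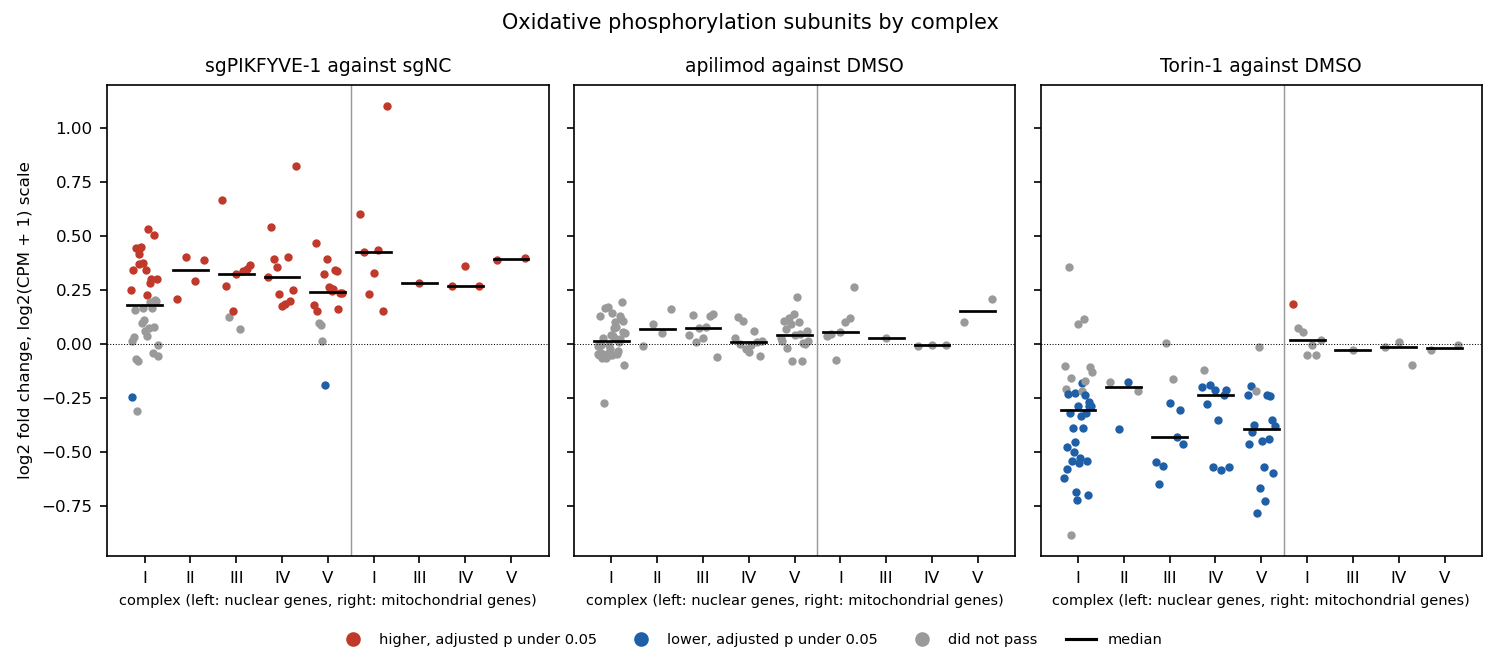
Log2 fold change of each of the 91 members, on the log2(CPM + 1) scale, by complex, with nuclear genes to the left of the vertical line and mitochondrial genes to the right. Each point is 1 gene, colored by its limma call, and the bar is the median. After knockdown 51 nuclear and 13 mitochondrial points are called higher, with apilimod 0 are called, and with Torin-1 60 nuclear points are called lower while 1 mitochondrial point is called higher.

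The promoters of the nuclear members were read for letters known to be bound by regulators of respiratory genes. RefSeq promoters on GRCh38.p14, running from 250 bases before to 50 bases after the gene start, were matched for 65 of the 78. The motif GCGCATGCG of NRF1, a transcription factor known for binding respiratory gene promoters, searched on both strands, was in 10 of 65 member promoters (15.4%) and in 2.10% of all 27305 promoters, or 3.81% of the 10060 promoters of genes tested in both tables. With any base at the sixth place, GCGCANGCG, which includes every match of the first motif, it was in 21 (32.3%) against 8.05% of all promoters and 15% of those of tested genes. The ETS family motif CCGGAAG, bound by GABPA, was in 20 (30.8%) against 10.7% and 19.4%, and the YY1 motif AAGATGGCG in 8 (12.3%) against 1.85% and 4.02%. The ERR motif TCAAGGTCA was in 1 member promoter (1.54%), that of SDHD, against 0.359% of all promoters and 0.179% of those of tested genes. The CLEAR motif GTCACGTGA, bound by TFEB and related lysosomal regulators, was in 1 (1.54%), that of ATP5ME, against 0.901% and 1.74%. The SREBP motif TCACCCCAC was in 0 of the 65 and in 0.425% of all promoters.

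Windows of 30 bases around the exact NRF1 match are shown for 9 of the 10 members that hold it; in NDUFA8, the other one, the match runs across the gene start. They show how the same letters stand in genes that moved together and in genes that did not. Capitals mark the motif or its reverse complement, joined into a run where both match, and all run 5′ to 3′ on the strand of the gene.
NDUFB4, chr3:120596167-120596196, plus strand: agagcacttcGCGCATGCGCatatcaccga
NDUFS6, chr5:1801351-1801380, plus strand: cagaagccgtGCGCATGCGttagcgctaag
NDUFS7, chr19:1383823-1383852, plus strand: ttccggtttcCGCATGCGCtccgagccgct
SDHD, chr11:112086753-112086782, plus strand: agctgtgtttGCGCATGCGCgacgggtgtg
COX6A1, chr12:120437884-120437913, plus strand: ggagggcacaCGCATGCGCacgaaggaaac
ATP5F1C, chr10:7788145-7788174, plus strand: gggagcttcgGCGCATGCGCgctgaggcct
ATP5MC2, chr12:53676105-53676134, minus strand: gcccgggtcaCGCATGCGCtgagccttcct
ATP5ME, chr4:674335-674364, minus strand: gccgctgacgGCGCATGCGtgcgcccagct
ATP5PF, chr21:25735155-25735184, minus strand: cactcaaagaGCGCATGCGtacagagcaag
Of the 10 members, 7 rose after knockdown, 1 fell (ATP5MC2, log2 fold change -0.19) and 2 did not pass, NDUFB4 (0.11) and NDUFS7 (0.20). With Torin-1, 8 fell, and SDHD and ATP5MC2 did not pass. Among all 78 nuclear members, 51 rose after knockdown and 60 fell with Torin-1, shares near those of these 10. Over all genes tested, 21.6% rose after knockdown and 21.8% fell with Torin-1. The counts of the 10 are thus not a result about the motif. A match is a description of the letters and not of binding.

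Complex I oxidises NADH and is the largest of the 5. After knockdown 15 of its 36 nuclear members rose and 1 fell, and the median log2 fold change was 0.18. The highest were NDUFB9 (0.53 ± 0.06 (SE), adjusted p = 6.11e-07) and NDUFS6 (0.50 ± 0.07, adjusted p = 1.84e-05), both accessory subunits. NDUFS6 was at 55.4 and 61.8 CPM in the sgNC samples and at 83.4 CPM in both sgPIKFYVE-1 samples, so the groups did not overlap. The member that fell was NDUFA11, an accessory subunit of the membrane arm, from 74.3 and 78.4 CPM to 63.9 and 64.5 CPM (log2 fold change -0.25 ± 0.07, adjusted p = 0.00826). This last call was lost without sgNC replicate 2 (adjusted p = 0.106) and without the variance trend (adjusted p = 0.0706).

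The 29 accessory subunits and the 7 nuclear core subunits, those that carry the redox centers and bind the substrates, were called in similar shares after knockdown, with 12 and 3 higher. With Torin-1, 21 of the 29 accessory and 4 of the 7 core subunits fell, with median log2 fold changes of -0.39 and -0.24. NDUFB3 fell from 86.0 and 84.8 CPM with DMSO to 48.9 and 53.7 CPM, and NDUFB2 from 90.3 and 93.7 CPM to 54.1 and 59.7 CPM. Both belong to the membrane arm. NDUFS6 fell to 45.3 and 48.8 CPM from 75.9 and 78.1 CPM (log2 fold change -0.70 ± 0.07, adjusted p = 5.93e-06). NDUFS1, the largest subunit and a carrier of iron-sulfur clusters, went the other way, with 125.3 and 127.1 CPM against 114.5 and 118.6 CPM, but did not pass the test (log2 fold change 0.11 ± 0.06, adjusted p = 0.150). It was the only nuclear member called higher in Torin-1 against apilimod (0.16 ± 0.06, adjusted p = 0.0382), a call that was lost when any 1 of those 4 libraries was left out.

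NDUFA3 and NDUFA6 had the lowest levels of the members, and NDUFA6 fell below what 3 reads are worth in some samples. NDUFA3 was between 1.71 and 3.40 CPM over all samples. NDUFA6 had means of 1.01 and 1.04 CPM, just above the minimum of 1, and its 2 DMSO samples were at 3.70 and 0.127 CPM, so the largest negative log2 fold change with Torin-1, -0.89 ± 0.50, did not pass. Just under the minimum was UQCRHL, a copy of UQCRH, with means of 0.947 and 0.619 CPM. ATP5MGL, the other gene left out, had means of 0.0562 and 0.268 CPM, within or below the range that 3 reads are worth.

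Complex II, succinate dehydrogenase, links the tricarboxylic acid cycle to the respiratory chain. SDHA holds the flavin, SDHB the iron-sulfur clusters, and SDHC and SDHD anchor the enzyme in the membrane. Knockdown raised all 4. SDHB (ENSG00000117118.9, chr1:17018722-17054170, minus strand, GRCh38) was at 42.1 and 43.4 CPM in the sgNC samples and at 59.1 and 54.8 CPM in the sgPIKFYVE-1 samples. SDHD rose from 52.9 and 52.2 CPM to 66.2 and 72.3 CPM, SDHC from 153.1 and 165.2 CPM to 194.0 and 195.8 CPM, and SDHA from 113.1 and 122.0 CPM to 137.7 and 134.0 CPM. In none of the 4 did the groups overlap, as was so, in the same direction, for 35.4% of all genes tested. Their log2 fold changes were 0.40 ± 0.08 for SDHB (adjusted p = 0.000526), 0.39 ± 0.08 for SDHD, 0.29 ± 0.05 for SDHC and 0.21 ± 0.06 for SDHA, whose call was lost without sgNC replicate 1.

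With apilimod SDHB was at 60.5 and 59.4 CPM against 55.1 and 57.3 CPM with DMSO, a difference of 0.09 on the log2 scale with a 95% interval from -0.0728 to 0.257 (adjusted p = 0.557). The intervals for SDHA, SDHC and SDHD were -0.170 to 0.153, -0.0873 to 0.183 and -0.0862 to 0.408. Torin-1 lowered SDHB to 42.8 and 42.2 CPM (log2 fold change -0.40 ± 0.08, adjusted p = 0.00109). The other anchor and flavin subunits moved less. SDHC was at 149.8 and 146.1 CPM against 158.1 and 176.8 CPM (-0.18 ± 0.06, adjusted p = 0.0403, a call lost without DMSO replicate 2, without either Torin-1 replicate and under all 3 other scalings), and SDHA and SDHD did not pass (adjusted p = 0.0767 and 0.150). Set directly against apilimod, Torin-1 gave lower SDHB, SDHC and SDHD, with -0.49 ± 0.08 for SDHB (adjusted p = 0.000143).

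Iron-sulfur clusters are carried by 7 of the nuclear members, NDUFS1, NDUFS7, NDUFS8, NDUFV1, NDUFV2, SDHB and UQCRFS1. After knockdown 4 of them rose, NDUFS1, NDUFV1, SDHB and UQCRFS1, by 0.28 to 0.40. With Torin-1, 5 fell, of which UQCRFS1, the Rieske protein of complex III, fell furthest, from 71.5 and 66.3 CPM to 48.6 and 52.9 CPM (-0.43 ± 0.08, adjusted p = 0.000809). With apilimod 0 of the 7 passed, and the log2 fold changes ran from -0.10 for NDUFV2 to 0.19 for NDUFS7.

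**Figure D2:**
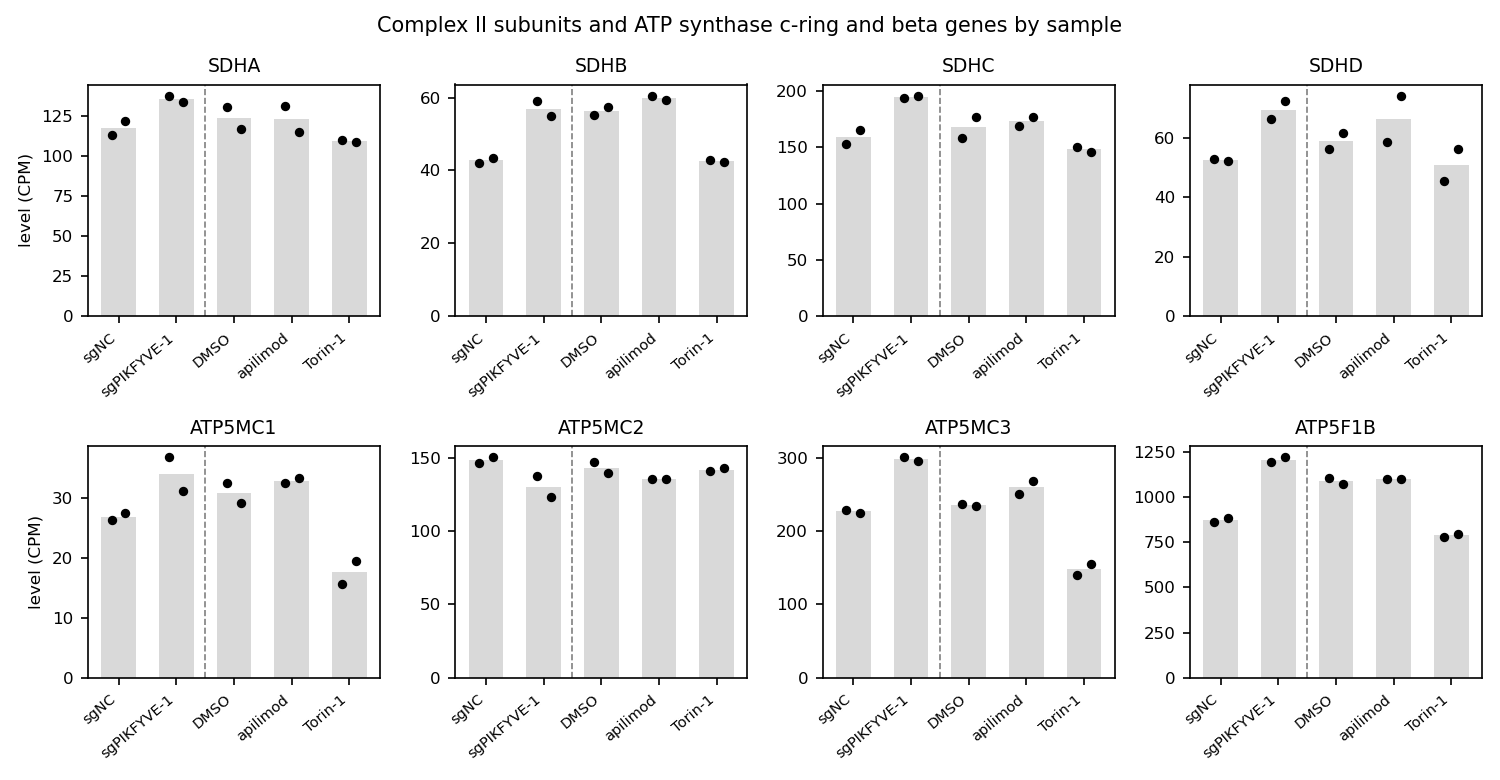
Levels in CPM of the 4 complex II genes, the 3 c-ring genes and ATP5F1B by group, with a bar for the mean and a point for each of 2 samples; the dashed line separates the tables, which were normalised apart. SDHB is at 42.1 to 43.4 CPM with sgNC and 54.8 to 59.1 CPM with sgPIKFYVE-1, and ATP5MC2 stays between 139.8 and 147.0 CPM with DMSO and Torin-1 while ATP5MC1 and ATP5MC3 are lower with Torin-1.

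Complex III transfers electrons from ubiquinol to cytochrome c. Knockdown raised 7 of its 9 nuclear members, with CYC1, the cytochrome c1 heme protein, highest at 95.5 and 84.6 CPM against 53.7 and 58.8 CPM (0.67 ± 0.08, adjusted p = 1.02e-06). Torin-1 lowered 7 of 9, among them CYC1, from 98.1 and 93.6 CPM to 64.9 and 65.4 CPM (-0.55 ± 0.07, adjusted p = 2.44e-05), and UQCR10, a small subunit, from 43.0 and 44.0 CPM to 24.7 and 30.2 CPM (-0.65 ± 0.10, adjusted p = 0.000235). UQCRB and UQCRC2 did not pass, with log2 fold changes of 0.00 and -0.16. UQCRH, the acidic hinge protein, moved by 0.35 ± 0.05 after knockdown and by -0.31 ± 0.05 with Torin-1. Its copy UQCRHL stayed between 0.0983 and 1.35 CPM in all samples.

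Complex IV, cytochrome c oxidase, reduces oxygen. All 11 of its nuclear members rose after knockdown, with log2 fold changes from 0.18 for COX6C, a call lost without sgNC replicate 1 or sgPIKFYVE-1 replicate 2, to 0.82 for NDUFA4. NDUFA4 (ENSG00000189043.10, chr7:10931951-10940256, minus strand, GRCh38) was at 124.6 and 129.0 CPM in the sgNC samples and at 229.1 and 221.0 CPM in the sgPIKFYVE-1 samples (0.82 ± 0.05, adjusted p = 3.91e-10). COX5A, a subunit on the matrix side, followed at 124.2 and 123.7 CPM against 89.0 and 80.6 CPM (0.54 ± 0.06). With Torin-1, 10 of the 11 fell. NDUFA4 fell from 214.4 and 225.3 CPM to 140.9 and 154.3 CPM (-0.57 ± 0.06, adjusted p = 5.65e-06) and COX7B from 104.0 and 111.4 CPM to 65.4 and 78.1 CPM (-0.58 ± 0.08, adjusted p = 0.000118). COX5A was the member that did not pass, at 97.9 and 99.4 CPM against 102.5 and 113.0 CPM. With apilimod NDUFA4 was at 217.3 and 226.8 CPM, which overlapped its DMSO samples.

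Complex V is built from a catalytic F1 head, a rotor with a ring of c subunits, a peripheral stalk and small membrane subunits. After knockdown 14 of its 18 nuclear members rose and 1 fell. Those that rose included all 4 stalk subunits and all 5 small membrane subunits. ATP5F1B, the catalytic beta subunit, rose furthest, from 864.4 and 883.8 CPM to 1195 and 1222 CPM (0.47 ± 0.04, adjusted p = 1.28e-08). Of the other F1 subunits, ATP5F1A and ATP5F1C rose, whereas ATP5F1D and ATP5F1E did not pass (adjusted p = 0.377 and 0.148). ATP5IF1, the inhibitor of the enzyme, had a log2 fold change of 0.01 ± 0.13.

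With Torin-1, 16 of the 18 fell, including all 5 F1 subunits, all 4 stalk subunits and all 5 membrane subunits. ATP5F1B was at 777.4 and 797.9 CPM against 1106 and 1070 CPM with DMSO (-0.47 ± 0.04, adjusted p = 5.88e-07). ATP5MF, a small membrane subunit, fell from 118.8 and 129.8 CPM to 73.9 and 74.9 CPM (-0.73 ± 0.07, adjusted p = 1.44e-06). A readthrough entry that shares its sequence, ATP5MF-PTCD1, was listed apart at 7.92 to 14.6 CPM.

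The c subunit of the ring is known to be made from 3 nuclear genes, ATP5MC1, ATP5MC2 and ATP5MC3, which encode the same mature protein with different targeting peptides. ATP5MC1 and ATP5MC3 moved with the rest of the complex. ATP5MC1 (chr17:48892765-48895871, plus strand) was at 26.3 and 27.4 CPM with sgNC and 36.8 and 31.2 CPM with sgPIKFYVE-1, and ATP5MC3 (chr2:175176258-175184607, minus strand) at 229.5 and 225.5 CPM and at 301.4 and 296.1 CPM. ATP5MC2 (chr12:53632726-53677408, minus strand) was at 146.6 and 150.7 CPM with sgNC and lower, at 137.7 and 123.1 CPM, with sgPIKFYVE-1. The log2 fold changes were 0.32 ± 0.11 (adjusted p = 0.0190), 0.39 ± 0.05 (adjusted p = 1.87e-06) and -0.19 ± 0.06 (adjusted p = 0.0178) in that order. The calls of ATP5MC1 and ATP5MC2 were each lost when 1 of 2 libraries was left out, sgPIKFYVE-1 replicate 1 or sgNC replicate 1 for the former and replicate 2 of either group for the latter.

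Torin-1 gave ATP5MC1 at 15.7 and 19.4 CPM against 32.5 and 29.2 CPM, the largest fall among members that passed (-0.78 ± 0.12, adjusted p = 0.000139), and ATP5MC3 at 140.3 and 155.3 CPM against 236.6 and 234.6 CPM (-0.67 ± 0.06, adjusted p = 1.55e-06). ATP5MC2 was at 141.1 and 142.9 CPM against 147.0 and 139.8 CPM, with overlapping groups and a log2 fold change of -0.01 (95% interval -0.136 to 0.109). The share of ATP5MC2 in the summed CPM of the 3 genes, not corrected for length, was 36.4% and 37.3% with sgNC and 28.9% and 27.3% with sgPIKFYVE-1. In the drug table it was 35.3% and 34.6% with DMSO, 32.4% and 31.0% with apilimod, and 47.5% and 45.0% with Torin-1. These 3 genes were not tested against each other.

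The mitochondrial genome encodes 13 proteins, the hydrophobic cores of complexes I, III, IV and V, which are transcribed as long precursors from both strands and cut apart. The labels and the text of the study differ on whether RNA was selected by poly(A) tail or by removal of rRNA, on which the levels of these transcripts depend, so shares and the order of levels hold for these libraries alone. Together they made up 6.91% and 6.90% of all CPM in the sgNC samples and 8.42% and 8.33% in the sgPIKFYVE-1 samples, a sum 24.8% higher. The 78 nuclear members summed to 0.886% and 0.903% with sgNC and 1.05% in both sgPIKFYVE-1 samples, and were 20.7% higher in CPM. With Torin-1 the nuclear sum was 7475 and 7837 CPM against 9597 and 9755 CPM with DMSO, 20.9% lower. The mitochondrial sum was 74068 and 76226 CPM against 75977 and 74418 CPM, with overlapping groups. As a share of all CPM it was 7.62% and 7.70% with Torin-1 against 7.57% and 7.44% with DMSO, without overlap. Whether these groups overlap thus depends on the scale. With apilimod the sums were 9744 and 10046 CPM for the nuclear and 77622 and 75415 CPM for the mitochondrial members, and both overlapped DMSO. With 2 samples a group, an exact permutation test cannot go below p = 0.333, so the sums were not tested.

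**Figure D3:**
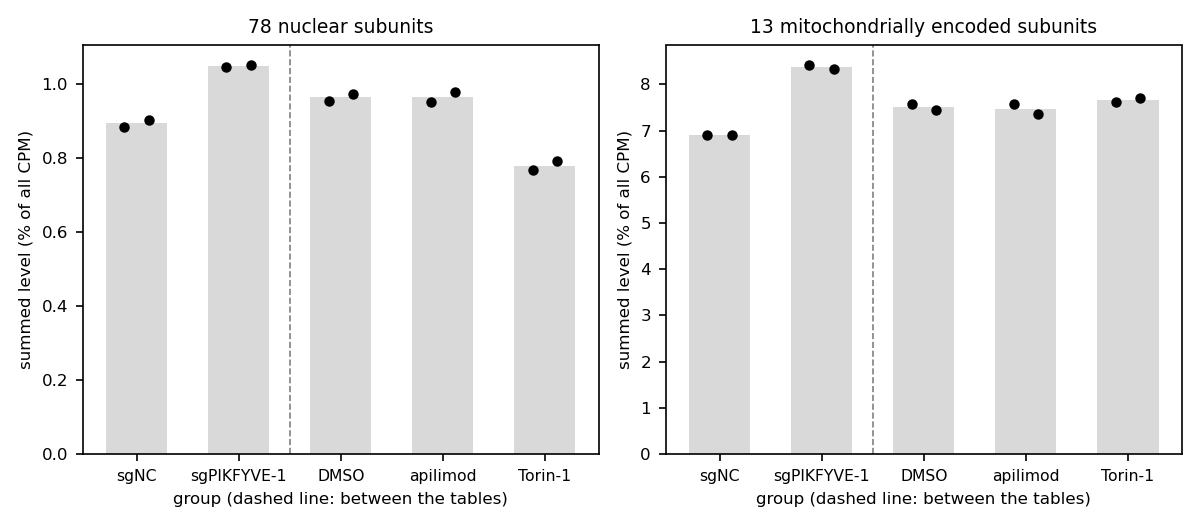
Summed level of the nuclear (left) and mitochondrially encoded (right) members as a percentage of all CPM in each sample, with bars for group means and points for the 2 samples; the dashed line separates the tables. Both sums are higher with sgPIKFYVE-1 than with sgNC, and with Torin-1 the nuclear sum is lower than with DMSO. The mitochondrial points are at 7.62% and 7.70% with Torin-1 and at 7.57% and 7.44% with DMSO.

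By complex, the nuclear sums after knockdown were 15.3% higher for complex I, 22.8% for complex II, 22.2% for complex III, 26.1% for complex IV and 21.0% for complex V, and in all 5 the groups did not overlap. With Torin-1 the same sums fell by 20.4%, 13.8%, 20.1%, 19.2% and 23.1%. Again no groups overlapped. With apilimod the nuclear sums of complexes II, III and V were 3.9%, 4.9% and 2.3% higher in CPM, without overlap. Those of complexes I and IV, 1.4% and 1.5% higher, overlapped DMSO. The mitochondrial sums of complexes I and V were 4.0% and 7.7% higher in CPM without overlap, and those of III and IV overlapped. As a share of all CPM, the nuclear sums of all 5 complexes overlapped DMSO with apilimod.

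Among the mitochondrial genes, the size of the rise after knockdown differed. MT-ND6 (ENSG00000198695.2, chrM:14149-14673), the only member on the strand opposite to the other 12, was at 97.4 and 136.0 CPM with sgNC and at 249.3 and 247.4 CPM with sgPIKFYVE-1 (1.10 ± 0.09, adjusted p = 1.67e-08). Whether counting used strand is not given in the sources used here, and without it reads from the other strand cannot be told apart from MT-ND6. MT-ND1 (chrM:3307-4262) was next, at 4923 and 5112 CPM against 7700 and 7536 CPM (0.60 ± 0.04, adjusted p = 1.32e-10). MT-ND5 moved least, from 5823 and 5800 CPM to 6524 and 6397 CPM (0.15 ± 0.04, adjusted p = 0.00180), and had a log2 fold change of -0.07 after quantile normalization. The 3 core subunits of cytochrome c oxidase, MT-CO1, MT-CO2 and MT-CO3, had log2 fold changes of 0.27, 0.36 and 0.27, and the cytochrome b gene MT-CYB 0.28.

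MT-ATP8 and MT-ATP6, which share 46 bases, moved by 0.40 and 0.39, and MT-ND4L and MT-ND4, which share 7, by 0.43 and 0.33. MT-ND2 and MT-ND3 stood at 0.43 and 0.23. Per kilobase of gene length the order in the sgNC samples ran from MT-CO1 (14221 CPM per kb) and MT-CO3 (9258) down to MT-ATP8 (1418) and MT-ND6 (222.2). MT-ND1 stood at 5248 CPM per kb with sgNC and 7969 with sgPIKFYVE-1. Nuclear copies of mitochondrial genes were listed apart, of which MTATP6P1 had the highest level, between 280.6 and 443.5 CPM, and MTND1P23 between 30.6 and 53.4 CPM. MTATP6P1 was at 334.8 and 305.0 CPM with sgNC and at 443.5 and 411.1 CPM with sgPIKFYVE-1. How reads were divided between these copies and the mitochondrial genes was not tested, so values of these genes are uncertain to that extent.

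With Torin-1, MT-ND1 was the 1 mitochondrial member that passed, at 8430 and 8616 CPM against 7670 and 7340 CPM with DMSO (0.18 ± 0.03, adjusted p = 0.000860). That call was lost when genes with low values were kept and when the variance trend was left out (adjusted p = 0.118 and 0.109). The other 12 had log2 fold changes between -0.10 for MT-CO3 and 0.07 for MT-ND2. With apilimod, MT-ND6 had the largest difference, at 333.4 and 280.6 CPM against 253.6 and 256.0 CPM (0.26 ± 0.08, adjusted p = 0.0614), followed by MT-ATP8 at 277.4 and 280.5 CPM against 223.5 and 260.3 CPM (0.21 ± 0.08, adjusted p = 0.167). MT-CO1 differed by -0.01 with a 95% interval from -0.0650 to 0.0460.

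**Figure D4:**
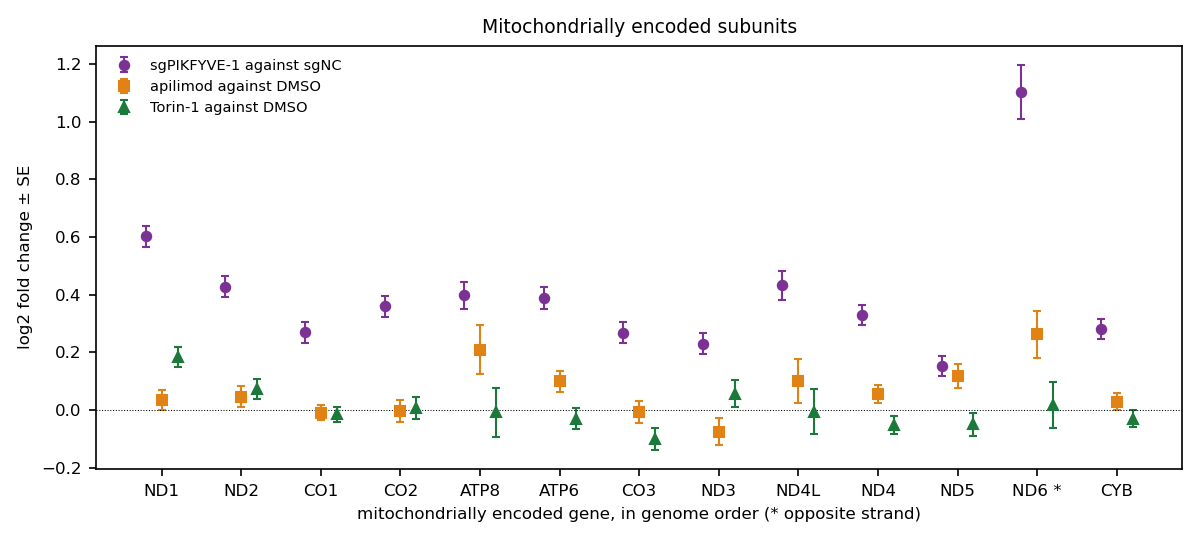
Log2 fold change with its SE of the 13 mitochondrially encoded members, in the order of the genes along the mitochondrial genome, for the 3 comparisons with a control. After knockdown every point lies above 0, from 0.15 for MT-ND5 to 1.10 for MT-ND6, whereas with Torin-1 the points lie between -0.10 and 0.18.

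Torin-1 was also compared with apilimod directly, in the same fit of 6 samples, to which the DMSO samples contribute their spread. Of the nuclear members 64 were lower with Torin-1 and 1 higher, where 26.2% of all genes were called lower and 20.5% higher. With the DMSO samples left out of the fit these counts were 61 and 0. Of the mitochondrial members 5 were lower, MT-ND4, MT-ND5, MT-ND6, MT-ATP6 and MT-ATP8, and 2 higher, MT-ND1 and MT-ND3, with -0.24 for MT-ND6 as the difference of greatest size. The nuclear members with the lowest log2 fold changes in this comparison were ATP5MC1 (-0.87 ± 0.12), ATP5MF (-0.83 ± 0.07), NDUFS6 (-0.82 ± 0.07), ATP5MC3 (-0.81 ± 0.06) and ATP5ME (-0.79 ± 0.08). When genes with low values were kept, or when the variance trend was left out, 0 of the 7 mitochondrial calls passed. The 5 lower mitochondrial calls became 1 without apilimod replicate 1 and 3 without Torin-1 replicate 1, and the 2 higher ones became 0 without apilimod replicate 2 and 1 without Torin-1 replicate 2 or apilimod replicate 1.

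For apilimod against DMSO, the highest nuclear members of complexes I, V, III and IV were NDUFS7 at 41.2 and 43.1 CPM against 36.2 and 37.2 CPM (0.19 ± 0.09, adjusted p = 0.228), ATP5ME at 85.6 and 83.4 CPM against 72.2 and 72.9 CPM (0.22 ± 0.08, adjusted p = 0.132), UQCRH (0.14 ± 0.05, adjusted p = 0.112) and COX5A (0.12 ± 0.07, adjusted p = 0.306). The lowest of complexes I, III, IV and V were NDUFA6, UQCRQ, COX8A and ATP5MPL, with -0.27, -0.06, -0.06 and -0.08. The 95% interval lay within 0.5 of 0 on the log2 scale for 76 of the 78 nuclear members and for all 13 mitochondrial ones. NDUFA3 and NDUFA6 were the 2 exceptions. Over all genes, 778 were called higher and 377 lower with apilimod, and 660 and 563 when the mitochondrially encoded genes were left out of the scaling.

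The knockdown and Torin-1 comparisons share no samples. Of the 51 nuclear members that rose after knockdown, 45 fell with Torin-1 (88.2%), which is 75.0% of the 60, out of all 78, that fell. Over all 13235 genes tested in both tables, 47.4% of the 2894 that rose after knockdown fell with Torin-1, which is 46.5% of the 2952 that fell. The other 6, NDUFS1, NDUFV1, SDHA, SDHD, COX5A and UQCRB, did not pass with Torin-1. A further 15 fell with Torin-1 without a call after knockdown, and both members that fell after knockdown, NDUFA11 and ATP5MC2, did not pass with Torin-1.

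**Figure D5:**
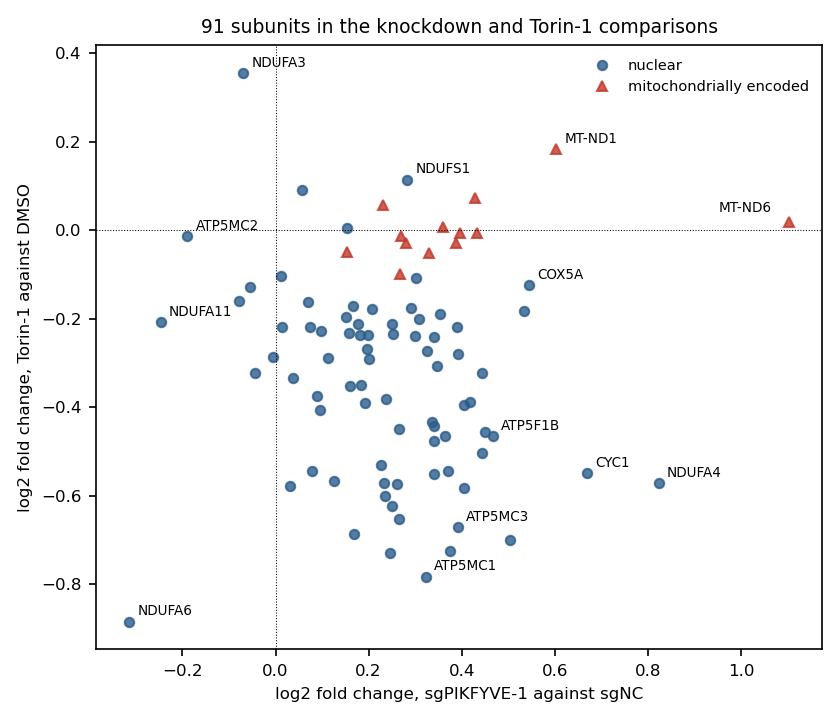
Log2 fold change of the 91 members after knockdown (horizontal) and with Torin-1 (vertical), 1 point per gene. The nuclear members lie mostly at the lower right, 45 of them called higher in the first and lower in the second, while the mitochondrial members lie to the right along the 0 line of the vertical axis.

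Genes that build, regulate and feed the respiratory chain were read from 12 lists that hold no member. Over all genes tested, 21.6% were called higher and 20.9% lower after knockdown. With apilimod the shares were 5.75% and 2.79%, and with Torin-1 16.6% and 21.8%. A list count near these shares is not a result about that list. The coactivators PPARGC1A and PPARGC1B, known for raising transcription of respiratory genes, were higher after knockdown and with apilimod. PPARGC1A was at 15.2 and 16.2 CPM with sgNC and 31.2 and 35.1 CPM with sgPIKFYVE-1 (1.03 ± 0.12, adjusted p = 6.76e-07). With apilimod it was at 29.4 and 30.6 CPM against 10.1 and 9.37 CPM with DMSO (1.53 ± 0.13, adjusted p = 1.79e-06), and with Torin-1 at 14.3 and 17.2 CPM (0.64 ± 0.13, adjusted p = 0.00137). The 3 treatments thus all had more PPARGC1A than their control. PPARGC1B moved by 0.83 ± 0.07 after knockdown, 0.47 ± 0.08 with apilimod and -0.53 ± 0.08 with Torin-1. Of the 8 regulators listed, 3 rose after knockdown, 2 with apilimod and 1 with Torin-1, where 2 fell, PPARGC1B and PPRC1. The Torin-1 counts were near the shares over all genes, 16.6% higher and 21.8% lower. NRF1 and GABPA passed in none of the 3.

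Of the 14 enzymes of the tricarboxylic acid cycle outside complex II, 12 rose and 2 fell after knockdown, led by citrate synthase (CS), from 236.5 and 242.5 CPM to 386.4 and 369.7 CPM (0.66 ± 0.05, adjusted p = 1.61e-09). With Torin-1, 8 of the 14 fell, OGDH, the E1 subunit of the 2-oxoglutarate dehydrogenase complex, furthest, from 234.1 and 221.7 CPM to 142.6 and 139.2 CPM (-0.69 ± 0.05, adjusted p = 3.08e-07). Apilimod raised 2, OGDH (0.41 ± 0.05, adjusted p = 0.000128) and CS (0.17 ± 0.05, adjusted p = 0.0295), the latter call being lost when any 1 of the 4 libraries was left out. Their medians were 0.30, -0.17 and 0.04 for knockdown, Torin-1 and apilimod, against -0.0042, -0.012 and -0.0057 over all genes tested.

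Cytochrome c (CYCS), the mobile carrier between complexes III and IV, was at 340.3 and 358.9 CPM with sgNC and 500.7 and 549.3 CPM with sgPIKFYVE-1 (0.58 ± 0.05, adjusted p = 1.68e-08). With Torin-1 it was at 273.7 and 316.6 CPM against 494.2 and 491.5 CPM (-0.74 ± 0.06, adjusted p = 7.74e-07), and with apilimod at 564.4 and 611.6 CPM (0.25 ± 0.06, adjusted p = 0.0198, lost without apilimod replicate 2 or either DMSO replicate). Of the 12 electron carrier genes, the others being enzymes of ubiquinone synthesis, 4 rose and 1 fell after knockdown, 2 rose and 5 fell with Torin-1, and 1 rose with apilimod. The counts that rose with Torin-1 and apilimod were near the shares over all genes, 16.6% and 5.75%. Among the 7 nucleotide and phosphate carriers, 4 rose and 1 fell after knockdown, while 4 fell and 1 rose with Torin-1, with SLC25A4, an ADP/ATP carrier, at -0.77 ± 0.09. Apilimod raised 1, SLC25A3, the phosphate carrier (0.22 ± 0.06), a call lost without either apilimod replicate or DMSO replicate 2.

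Factors for mitochondrial DNA and RNA were measured for 22 of 23 listed genes. After knockdown 10 rose and 3 fell, where 21.6% and 20.9% of all genes were called. With Torin-1 1 rose and 10 fell, where 16.6% and 21.8% were called. LRPPRC, which stabilises mitochondrial messenger RNAs together with SLIRP, rose from 226.5 and 248.9 CPM to 366.5 and 364.3 CPM after knockdown (0.62 ± 0.05). SLIRP rose by 0.59 ± 0.12. With Torin-1 SLIRP fell by 0.84 on the log2 scale, with an SE of 0.12, and LRPPRC was the 1 that rose, to 430.4 and 436.2 CPM from 334.3 and 341.7 CPM (0.36 ± 0.04, adjusted p = 3.32e-05). With apilimod LRPPRC was the 1 called (0.17 ± 0.04, adjusted p = 0.0260), a call lost when any 1 library was left out.

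Assembly factors insert cofactors and join subunits without staying in the finished complex. For complex I, 4 of 16 rose and 2 fell after knockdown, where 21.6% of all genes rose and 20.9% fell, and the 2 that fell had the largest changes: ECSIT, from a mean of 26.5 ± 3.83 CPM to 8.37 ± 0.402 CPM (SD, n = 2; -1.55 ± 0.14, limma adjusted p = 5.38e-08), and COA1, from 213.4 ± 0.921 CPM to 112.8 ± 4.03 CPM (-0.91 ± 0.05). With Torin-1 7 of the 16 fell and 0 rose. For complex IV, 8 of 22 rose and 1 fell after knockdown, with COA7 highest (0.87 ± 0.09). For the same list 13 fell and 1 rose with Torin-1, with COA3 and COA4 at -0.74 and -0.65. For complex V, TMEM70 was higher after knockdown (0.70 ± 0.09) and lower with Torin-1 (-0.52 ± 0.12).

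The lists for complexes II and III held 4 and 6 assembly factors, of which 1 in each rose after knockdown and 2 and 3 fell with Torin-1. Both knockdown counts were near the 21.6% of all genes that rose. Iron-sulfur cluster assembly, measured for 16 of 17 listed genes, had 4 higher and 0 lower after knockdown, where 21.6% and 20.9% of all genes were called, and 2 higher and 5 lower with Torin-1, where 16.6% and 21.8% were called, with BOLA3 at -0.65 ± 0.10. Of 11 further subunits, mostly tissue-specific forms, 5 were tested, of which 2 rose after knockdown and 2 fell with Torin-1, among them NDUFAB1 (-0.58 ± 0.10), the mitochondrial acyl carrier protein. Apilimod raised 1 assembly factor of complex I, TMEM126B (0.30 ± 0.08, limma adjusted p = 0.0322). It also raised 1 of complex V, TMEM70 (0.41 ± 0.12, limma adjusted p = 0.0439). With each replicate left out, their log2 fold changes ran from 0.21 to 0.38 and from 0.30 to 0.52. Both calls were close to the threshold. Among the 9 genes named that were called with apilimod, 6 lost their call under at least 1 alternative. Apilimod gave 0 calls with limma in the assembly lists for complexes II, III and IV, in iron-sulfur cluster assembly and among the further subunits. At an unadjusted p under 0.05, COX10, COA7, ISCA2 and IBA57 were higher there, with log2 fold changes of 0.29, 0.22, 0.40 and 0.39. How many of all genes passed that unadjusted limit was not counted, so these values are not read as an effect of apilimod.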

How the data were processed

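RNA-seq of 10 QGP-1 samples was analysed from 2 expression tables. The unit of the deposited tables is signal, in scaled CPM: the authors adjusted estimated counts with TMM factors in each table separately, so they are not raw counts, and the design had assumed plain CPM. The submitters' processing notes name hg38, bcl2fastq 2.20, FastQC, Trimmomatic, edgeR and DESeq2. The quantifier, the annotation and the strand setting are not given in the sources used here. The labels name rRNA depletion together with polyA RNA, whereas the text of the study names oligo(dT) selection.

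Only 68.8% to 72.4% of the low values in a sample were whole multiples of 1 read (within 0.02 reads). Depth was therefore estimated from these values, and no count test was run. limma 3.58.1 under R 4.3.3 (eBayes, variance trend) was run on log2(CPM + 1) for genes averaging 1 CPM or more, using 4 samples for the knockdown and 6 for the drugs, at an adjusted p of 0.05. The fits were tested on simulated data. Python 3.11.15, pandas 2.3.3 and matplotlib 3.10.9 were used for sums, motifs and plots. Gene positions are from GENCODE 29, whereas promoter windows follow RefSeq, whose gene starts can differ. The windows of NDUFS7, ATP5F1C, ATP5MC2 and ATP5PF lie inside the GENCODE 29 spans of these genes.

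Members and lists were chosen with earlier results of these data known. Genes named were PIKFYVE, all mitochondrial, complex II, iron-sulfur and c-ring members, UQCRH and UQCRHL, the highest and lowest nuclear member of each other complex, the 5 highest and 5 lowest members called per comparison, and up to 3 called genes per list. Members outside this rule, such as the remaining F1 subunits, UQCRC2 and the genes whose promoters are shown, were chosen after their values were seen, as were LRPPRC, SLIRP and further list genes where named beyond 3. Alternatives covered scaling, pseudocount, filter, variance trend, replicate block, the samples in the fit and each replicate left out.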

Additional observations from a re-analysis of the deposited data

How the results depend on the processing

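The counts of nuclear members called higher after knockdown and lower with Torin-1 stayed within 1.5 times of the reported values under every alternative run except that, without the variance trend, the former dropped from 51 to 25. Without that trend the 2 nuclear members lower after knockdown became 0, the 1 mitochondrial member higher with Torin-1 became 0, and in Torin-1 against apilimod the 1 nuclear and 2 mitochondrial members higher and the 5 mitochondrial members lower became 0. Without the filter, the nuclear members lower after knockdown became 1, the mitochondrial member higher with Torin-1 became 0, and the mitochondrial calls of Torin-1 against apilimod became 0 higher and 0 lower. Quantile normalization, which gives the top-ranked genes identical values by construction, called 1 mitochondrial member lower after knockdown (MT-ND5, log2 fold change -0.0719), 1 mitochondrial member higher with apilimod, and with Torin-1 1 nuclear and 2 mitochondrial members higher and 4 mitochondrial members lower. It turned MT-CO2 in Torin-1 against apilimod to -0.0711. Its median log2 fold changes were 0.21 for nuclear members after knockdown (reported 0.24), 0.0024 and 0 for nuclear and mitochondrial members with apilimod (0.026 and 0.047), -0.0408 for mitochondrial members with Torin-1 (-0.0077), and -0.28 for nuclear members in Torin-1 against apilimod (-0.35). Leaving the mitochondrially encoded genes out of the scaling gave nuclear medians of -0.0051 with apilimod and -0.29 in Torin-1 against apilimod. With a pseudocount of 0.1, 1 mitochondrial member was lower with Torin-1. With only the compared groups in the fit, 2 mitochondrial members were higher with apilimod, and 0 nuclear members were higher in Torin-1 against apilimod. The 13 mitochondrial members called higher after knockdown became 9 under quantile normalization, 9 without the variance trend and 11 without the filter. The cause of these shifts was not tested.

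Deviations of samples with the same replicate number correlated weakly (between 0.037 and 0.104), so pairing was not assumed. A block for that number still raised the calls over all genes in every comparison. For apilimod they went from 778 higher and 377 lower to 1055 and 701. A shared replicate effect was not tested. With the replicate number as a block, 1 nuclear and 4 mitochondrial members were higher with apilimod and 1 mitochondrial member was lower with Torin-1, while 53 nuclear members were higher after knockdown and 63 lower with Torin-1.

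Leaving out each replicate gave between 0 and 3 nuclear members lower after knockdown (0 without sgNC replicate 2, 1 without sgPIKFYVE-1 replicate 2, 3 without sgNC replicate 1), between 0 and 2 mitochondrial members higher with apilimod (2 without apilimod replicate 2), between 1 and 3 higher (3 without Torin-1 replicate 1) and 0 and 1 lower with Torin-1 (1 without Torin-1 replicate 2), and in Torin-1 against apilimod 0 nuclear and 0 to 2 mitochondrial members higher and 1 to 6 mitochondrial members lower. Medians ran from 0.33 to 0.37 for mitochondrial members after knockdown, from 0.015 to 0.058 and from 0.018 to 0.076 for nuclear and mitochondrial members with apilimod, from -0.039 to 0.016 for mitochondrial members with Torin-1, and from -0.43 to -0.30 and -0.11 to -0.026 for nuclear and mitochondrial members in Torin-1 against apilimod. With 2 samples a group and a depth of 9.30 M to 13.6 M reads, the SE of the log2 fold change with Torin-1 was 0.50 for NDUFA6, near 1 CPM, against a median of 0.0733 over nuclear members. Of the genes named, 19 of the 61 called after knockdown, 6 of the 9 with apilimod, 14 of the 49 with Torin-1 and 16 of the 55 in Torin-1 against apilimod lost their call under at least 1 alternative.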
